A study of Mus musculus with 6 samples.

Results

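The expression of 9 genes of myelin and oligodendrocyte maturation (Mbp, Mobp, Mog, Mag, Cnp, Opalin, Myrf, Bcas1 and Gpr17) was followed through single-nucleus RNA-seq of mouse cortical lesions. The 9 genes were chosen by name from the 32285 genes of the deposited matrices, and their unique molecular identifiers (UMIs) were summed in precursors, committed precursors and mature oligodendrocytes, and in myeloid nuclei. Lesions were made by photothrombosis (Rose Bengal and light over the somatosensory cortex) and dissected after 7 days or after 21 days (days post-injury, dpi). There were 6 libraries. At each day 1 came from wild-type mice (Ctrl), 1 from Col1a2(creER); Tgfbr2(flox) mice (Tgfbr2-cKO), and 1 from wild-type mice given ADWA11, an antibody that blocks integrin αvβ8, intraperitoneally on the day of injury and weekly. In Tgfbr2-cKO mice tamoxifen activates a Cre recombinase under the Col1a2 promoter. The deletion of the TGFβ receptor is thus directed at fibroblasts and not at the oligodendrocyte lineage. Each library pooled nuclei of a male and a female mouse, so each condition and day is 1 library, and conditions were compared by levels and ratios without a test.

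Oligodendrocytes arise from precursors that divide, withdraw from the cell cycle, pass through a brief committed stage and then either die or wrap axons in myelin. Gpr17, an orphan G-protein-coupled receptor, and Bcas1, a protein of newly forming processes, mark that transient stage. MYRF is the transcription factor that switches on the myelin programme. MBP compacts the cytoplasmic faces of the myelin membrane, MOBP lies beside it in compact myelin, CNP keeps cytoplasmic channels open, MAG faces the axon from the innermost wrap, and MOG and Opalin are membrane proteins of the mature sheath and cell. Mbp shares its locus with the upstream golli promoter, whose transcripts are also made in immune cells, and 3′ counting does not tell them apart.

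In the GRCm38 annotation Mobp spans chr9:120149707-120181484 on the plus strand and Cnp chr11:100574904-100591729 on the plus strand. On the minus strand, Mog spans chr17:37010743-37023398, Mag chr7:30899176-30914873, Opalin chr19:41061710-41077113, Myrf chr19:10208272-10240748 and Bcas1 chr2:170346991-170427845. The RefSeq promoter windows of 5 members (250 bases before to 50 after the start site, GRCm38.p6) are shown because MYRF, the product of another member, is known to bind an element that most of them hold. Capitals mark CTGGCAC or CTGGTAC on either strand, the 2 spellings of the element to which MYRF is known to bind.
Mag, chr7:30914814-30915113, minus strand: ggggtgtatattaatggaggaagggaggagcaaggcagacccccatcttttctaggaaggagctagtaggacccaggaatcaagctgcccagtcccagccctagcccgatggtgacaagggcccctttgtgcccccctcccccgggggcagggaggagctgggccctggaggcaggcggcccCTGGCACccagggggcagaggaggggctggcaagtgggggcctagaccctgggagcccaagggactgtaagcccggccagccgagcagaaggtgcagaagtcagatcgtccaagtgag
Cnp, chr11:100574689-100574988, plus strand: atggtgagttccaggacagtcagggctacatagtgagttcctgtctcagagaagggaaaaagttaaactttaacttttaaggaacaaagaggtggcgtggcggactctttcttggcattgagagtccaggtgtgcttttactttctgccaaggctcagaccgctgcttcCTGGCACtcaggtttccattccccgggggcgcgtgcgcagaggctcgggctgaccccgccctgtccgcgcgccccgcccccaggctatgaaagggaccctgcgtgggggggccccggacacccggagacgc
Opalin, chr19:41077064-41077363, minus strand: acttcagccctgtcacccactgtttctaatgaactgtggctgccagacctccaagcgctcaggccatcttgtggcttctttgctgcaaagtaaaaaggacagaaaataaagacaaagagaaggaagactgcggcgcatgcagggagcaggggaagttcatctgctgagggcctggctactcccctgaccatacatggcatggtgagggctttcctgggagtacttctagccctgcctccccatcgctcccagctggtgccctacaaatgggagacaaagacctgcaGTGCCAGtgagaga
Mog, chr17:37023349-37023648, minus strand: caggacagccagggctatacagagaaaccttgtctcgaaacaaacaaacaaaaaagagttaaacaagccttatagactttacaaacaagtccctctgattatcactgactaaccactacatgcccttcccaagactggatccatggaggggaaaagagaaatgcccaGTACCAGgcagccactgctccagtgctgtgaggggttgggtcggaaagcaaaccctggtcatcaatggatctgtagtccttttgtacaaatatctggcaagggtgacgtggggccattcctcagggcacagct
Mobp, chr9:120149492-120149791, plus strand: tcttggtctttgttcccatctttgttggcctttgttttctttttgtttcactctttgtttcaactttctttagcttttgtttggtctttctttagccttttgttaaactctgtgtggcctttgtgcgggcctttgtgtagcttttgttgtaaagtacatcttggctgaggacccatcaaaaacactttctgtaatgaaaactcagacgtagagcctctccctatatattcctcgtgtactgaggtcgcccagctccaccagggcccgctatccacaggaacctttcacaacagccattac
CTGGCAC stood in the windows of Mag (first base at -68 from the start site), Cnp (-81) and Opalin (37, reverse strand), and CTGGTAC in that of Mog (-83, reverse strand). The window of Mobp held neither. Mag has 2 other start sites in the table. The window of 1 overlaps the one shown and holds the same CTGGCAC, which lies at -9 from that start site, and the other held neither spelling. Of 32851 promoter windows of this length, 5.01% held CTGGCAC, 2.24% held CTGGTAC and 7.1% held either, so a match is a description of these letters and not a binding site.

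The libraries held 7205 to 14246 barcodes with a median of 4602 to 8223 UMIs, and 61917 nuclei were kept after the percentile filter. Of these, 8.43% were called as doublets, and 0.828% of distinct barcodes occurred in more than 1 library. In fibroblast-like nuclei the targeted gene, Tgfbr2, stood at 250 and 200 CPM (UMIs scaled to a total of 1000000 per class and library) in the Tgfbr2-cKO libraries against 332 and 240 CPM in Ctrl and 256 and 202 CPM in ADWA11 at 7 and 21 dpi. The 3′ reads need not cover the floxed exons, so this level does not check the deletion. The 2 Tgfbr2-cKO libraries stood apart in that nuclei of every class named here carried more neuronal RNA. The 7 neuron markers summed to 77.5 to 434 CPM in fibroblast-like, T cell-like, endothelial-like and myeloid-like nuclei of these libraries, against 2.54 to 16.9 CPM in the other 4.

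Clustering was done without the 9 members and without the other oligodendrocyte gene lists, and classes were named by separate markers. Precursor-like nuclei (Pdgfra, Vcan and Ptprz1 among the markers) numbered 266, 453 and 256 at 7 dpi and 67, 21 and 83 at 21 dpi in Ctrl, ADWA11 and Tgfbr2-cKO. Committed precursor-like nuclei (Bmp4, Enpp6, Fyn) numbered 99, 372 and 145, then 47, 8 and 34. Mature oligodendrocyte-like nuclei (Aspa, Ermn, Ugt8a) numbered 29, 45 and 734, then 92, 17 and 593. Neuron-like nuclei numbered 136, 27 and 5911, then 192, 10 and 767. The nuclei kept in all were 8294, 10950 and 10594, then 13083, 12413 and 6583. The number of mature nuclei in a library thus cannot be told apart from the tissue that was dissected with the lesion. The ADWA11 library at 21 dpi held fewer than 20 committed and 20 mature nuclei, so no ratio to Ctrl and no call was made for it in those classes. Its levels are still given, and they enter the ratios between stages and the percentages of the mature level. Of its 17 mature nuclei, 16 were called as doublets.

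The members separated into 3 courses along the lineage. Bcas1 and Gpr17 peaked in committed precursors, Mbp, Mobp, Mog, Mag, Opalin and Myrf were highest in mature nuclei as a class, and Cnp rose to the committed stage with no common direction after it. These orders are a description of named stages, with no test. In precursors Bcas1 stood at 708, 733 and 813 CPM at 7 dpi (Ctrl, then ADWA11, then Tgfbr2-cKO) and at 1004, 811 and 706 CPM at 21 dpi. In committed precursors it stood at 5485, 3902 and 4354 CPM, then 4975, 3677 and 4258 CPM. In mature nuclei it stood at 1182, 1140 and 868 CPM, then 882, 1161 and 818 CPM. The committed level was 4.53 to 7.75 times the precursor level in the 6 libraries, without overlap between stages.

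Gpr17 was 2.52 to 5.65 times higher in committed precursors than in precursors, again in 6 of 6 libraries. It all but vanished from mature nuclei. No UMI was counted in the mature nuclei of the Ctrl and ADWA11 libraries, and the Tgfbr2-cKO libraries had 0.362 CPM at 7 dpi and 0.526 CPM at 21 dpi. A count of 0 in the 92 mature nuclei of Ctrl at 21 dpi allows up to 6.12 CPM, against 192 CPM in the committed precursors of the same library.

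Mbp was already high in committed precursors, at 15.8 to 44.3 times the precursor level, and stood a further 1.38 to 3.59 times higher in mature nuclei of 5 libraries. Mag was 1.46 to 6.25 times higher over the same last step. In ADWA11 at 21 dpi, with 8 committed and 17 mature nuclei, these ratios were 3.95 and 10.6. Mobp, Mog and Opalin were the late genes. Mobp was 1.56 to 123 times higher in mature than in committed nuclei, Mog 2.93 to 26.1 times and Opalin 3.22 to 21.8 times, where the ADWA11 library at 21 dpi gives a lower bound for each because its 8 committed nuclei held none of their UMIs. The committed level of Mobp came mostly from the 56 nuclei of a small sub-cluster (sub-cluster 10), in which it was above the mature level of the same library, so its ratio moves with their number. Myrf rose 4.50- to 19.5-fold from precursors to committed precursors and 1.11- to 3.07-fold after that. Cnp was higher in mature than in committed nuclei in 3 of 6 libraries.

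**Figure D1:**
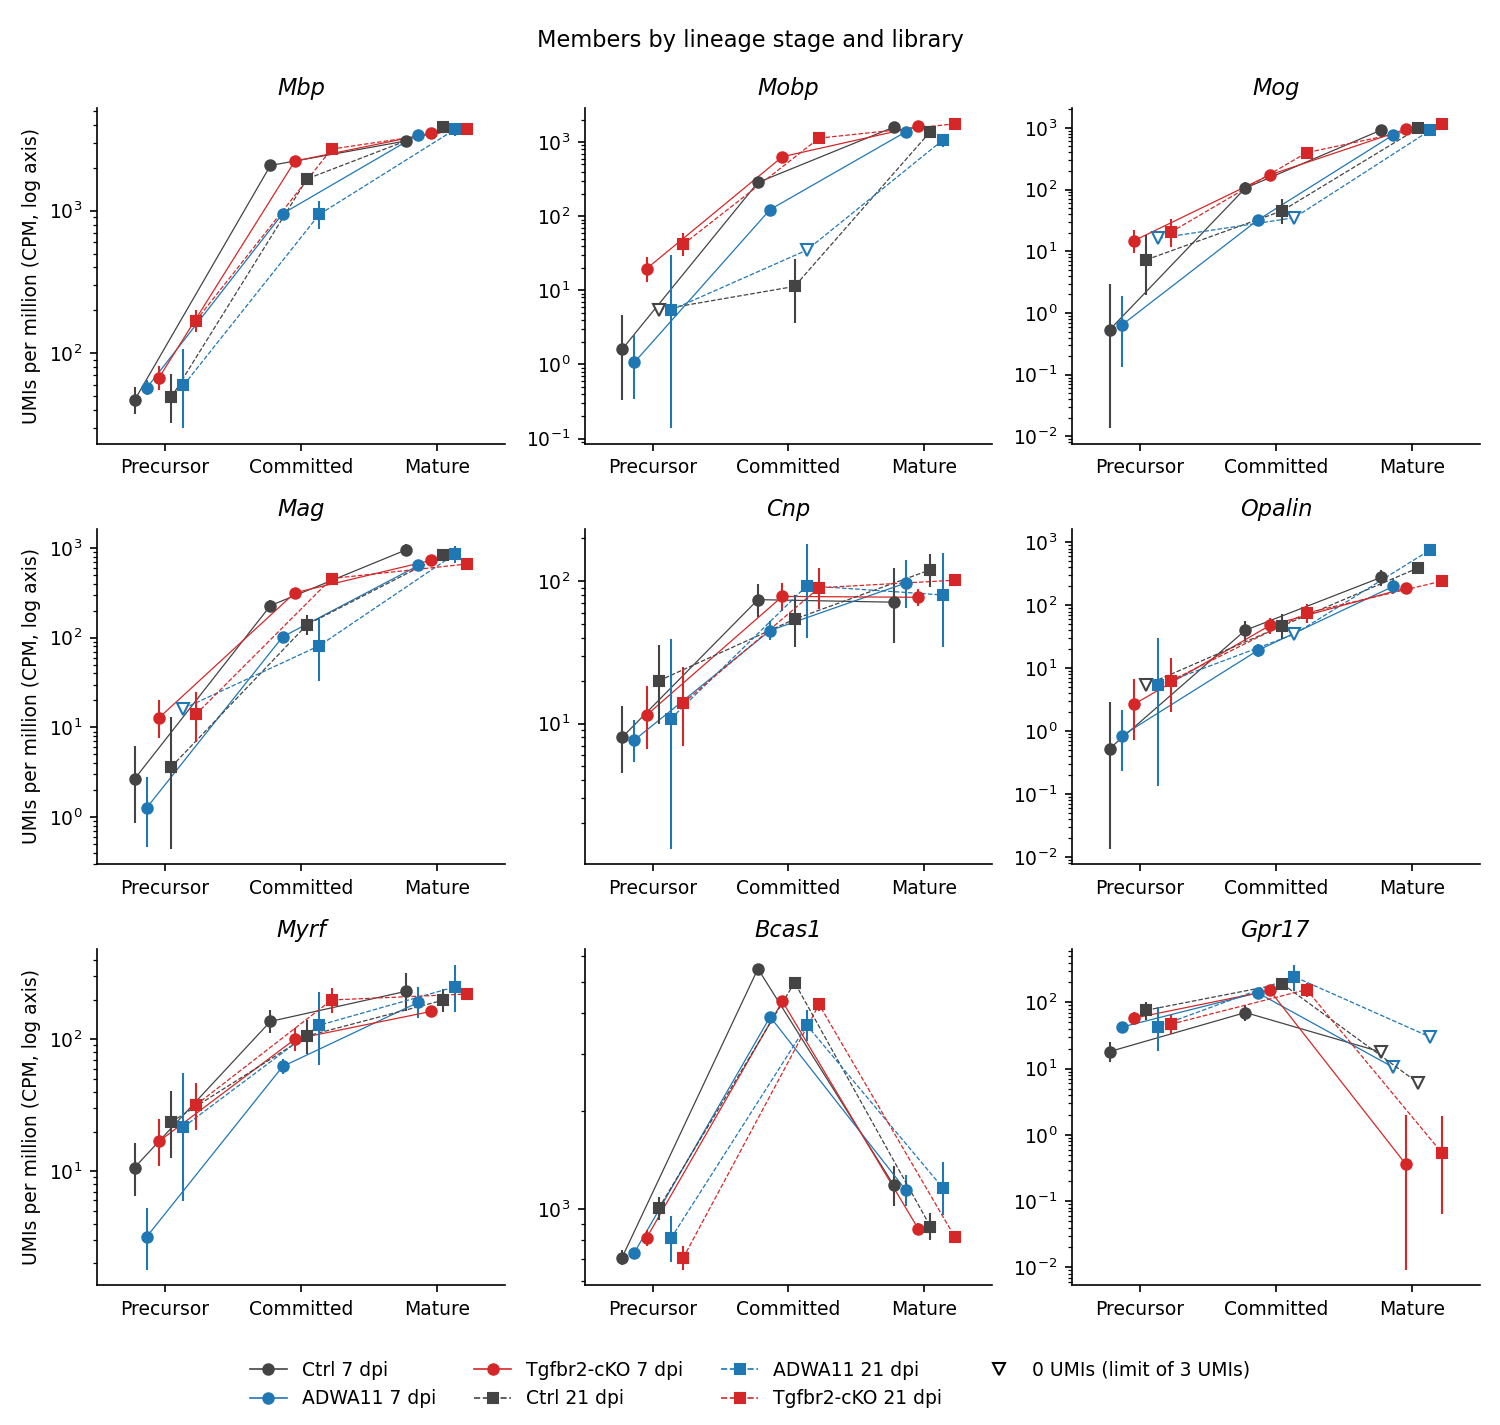
Level of each member (CPM, log axis) in precursor-like, committed precursor-like and mature oligodendrocyte-like nuclei of the 6 libraries, with exact Poisson 95% intervals and open triangles where no UMI was counted. Bcas1 and Gpr17 peak in the middle stage, and Mobp spreads from 0 to 1131 CPM among committed precursors of different libraries. Mbp is 1.38 to 3.95 times higher in the last stage than in the middle one.

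The genes whose levels ran most like Mbp over the 16 class and library combinations with at least 20 nuclei were Sgk2 (Pearson r = 0.984 on log2(CPM + 1)), Fa2h (0.980), Wdfy2 (0.978), Cdk18 (0.978) and Lgi3 (0.978). Fa2h makes the hydroxylated fatty acids of myelin lipids. Those most like Gpr17 were Neu4 (0.983), Pde4d (0.983), Trio (0.982), Lsamp (0.980) and Cask (0.978). Neu4, a sialidase, was among the markers that named the committed class, and 9611 genes were compared. Over the same combinations r was 0.47 between Bcas1 and Mbp, 0.55 between Bcas1 and Gpr17 and -0.43 between Gpr17 and Mbp. Combinations from 1 library share its depth and free RNA, so these values are descriptions.

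Within mature nuclei no member tested was called between conditions, and the number of such nuclei ranged from 17 to 734. Mbp stood at 3088, 3420 and 3491 CPM at 7 dpi in Ctrl, ADWA11 and Tgfbr2-cKO, and at 3882, 3724 and 3743 CPM at 21 dpi. Mobp stood at 1592, 1380 and 1635 CPM, then 1390, 1061 and 1767 CPM. Mog stood at 920.5, 771 and 951 CPM, then 976, 911 and 1160 CPM. The highest library was 1.26 times the lowest for Mbp, 1.66 times for Mobp and 1.5 times for Mog, where the lowest Mobp value is that of the 17 nuclei of ADWA11 at 21 dpi. Opalin ranged from 188 CPM in Tgfbr2-cKO at 7 dpi to 761 CPM in those 17 nuclei (4.04 times), and stood at 279, 202, 392 and 244 CPM in Ctrl and ADWA11 at 7 dpi and in Ctrl and Tgfbr2-cKO at 21 dpi.

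A gene was called here when its ratio was past 2-fold with a 95% interval that left out no change, among genes with at least 20 UMIs over the 2 libraries, and the intervals cover counting error only. Of the 8 members tested in mature nuclei, 0 were called in Tgfbr2-cKO against Ctrl at 7 dpi (8.66% of all genes were called), 0 at 21 dpi (9.62%), 0 in ADWA11 against Ctrl at 7 dpi (7.72%) and 0 in Ctrl at 21 against 7 dpi (10.5%). The median log2 ratio over the members was -0.18, -0.08, -0.23 and -0.06 in these comparisons, where that over all genes tested was 0.06, 0.07, -0.04 and 0.06. Changes under 2-fold were measurable for the abundant members. In Tgfbr2-cKO at 21 dpi the log2 ratio was 0.35 for Mobp (95% interval 0.23 to 0.46), 0.25 for Mog (0.11 to 0.39), -0.33 for Mag (-0.48 to -0.17) and -0.68 for Opalin (-0.91 to -0.45). At 7 dpi the log2 ratio of Mag was -0.39 in Tgfbr2-cKO (-0.63 to -0.15) and -0.58 in ADWA11 (-0.89 to -0.27). With 29 nuclei in the Ctrl library at 7 dpi, the interval of Cnp in Tgfbr2-cKO against Ctrl at 7 dpi ran from -0.72 to 1.09, which leaves room for a 2-fold rise.

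**Figure D2:**
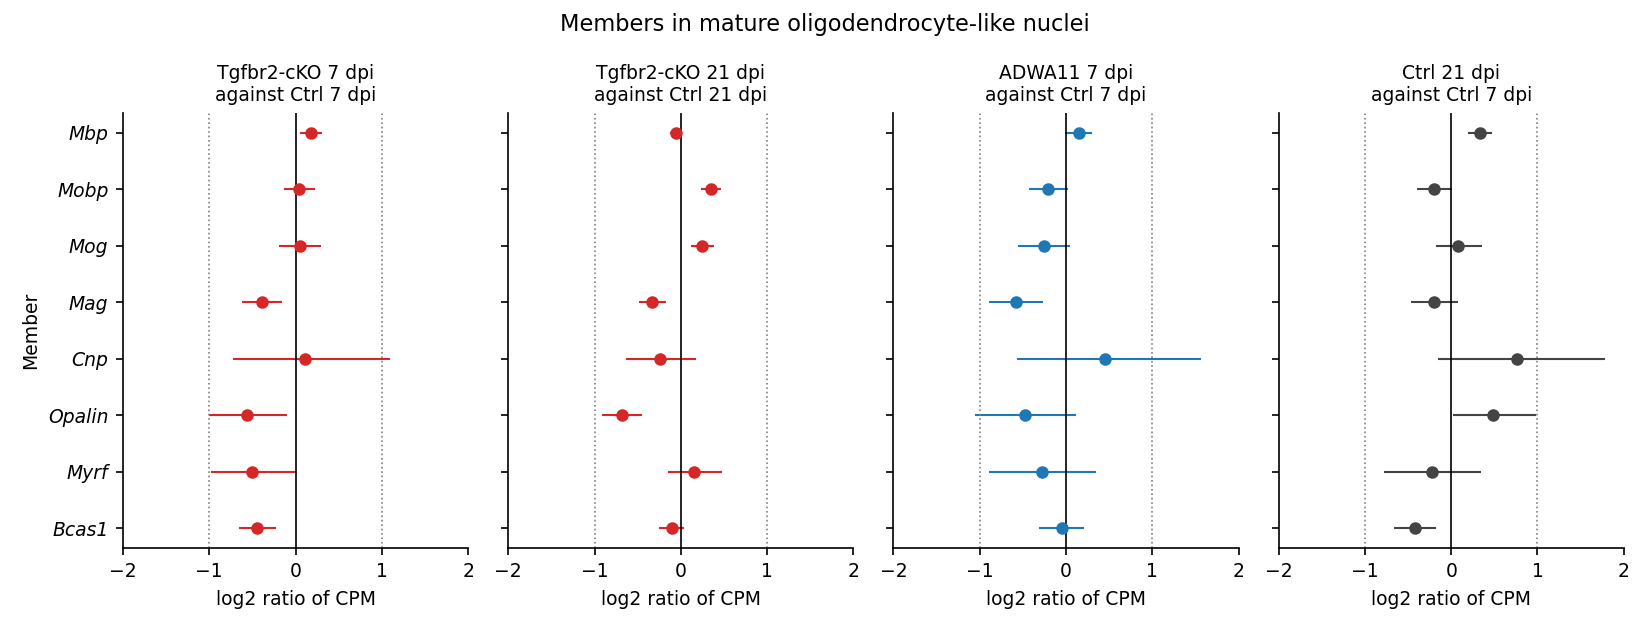
Log2 ratio of CPM for 8 members in mature oligodendrocyte-like nuclei in the 4 comparisons with at least 20 nuclei in both libraries, with exact conditional binomial 95% intervals. Dotted lines mark 2-fold, and no point lies beyond them.

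The mature nuclei were nevertheless not the same population in every library. Sub-cluster 3 was found in all 6, with 28, 45 and 180 nuclei at 7 dpi and 90, 17 and 221 at 21 dpi. Sub-cluster 1 was made up almost wholly of Tgfbr2-cKO nuclei, 554 at 7 dpi and 89 at 21 dpi, and its median depth was 3171 UMIs against 5295 UMIs in sub-cluster 3. In sub-cluster 1 all 11 mature markers and 4 of 7 neuron markers were raised, against 0 of 7 neuron markers in sub-clusters 3 and 6. Of its 554 nuclei at 7 dpi, 425 were called female and 15 male. Sub-cluster 6, led by Plin4 and Pdk4, held 283 nuclei, all from Tgfbr2-cKO at 21 dpi, of which 222 were called female and 4 male. In sub-cluster 3 of the same library 9 were called female and 176 male, so at 21 dpi sub-clusters 3 and 6 cannot be told apart from the 2 mice. Sub-cluster 3 of Tgfbr2-cKO at 7 dpi held 119 female-called and 34 male-called nuclei, and sub-cluster 1 at 21 dpi held 9 and 57. Restricted to sub-cluster 3, the median log2 ratio over the members lay between -0.20 and -0.04 in the 4 comparisons.

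Other oligodendrocyte gene lists were counted in mature nuclei as well. Of 18 other myelin genes, all 18 were tested in Tgfbr2-cKO, with 2 higher and 0 lower at 7 dpi (8.66% of all genes were called) and 0 called at 21 dpi (9.62%). In Ctrl 4 of 17 were higher at 21 than at 7 dpi (10.5% of all genes were called), among them Mal (422 against 71.3 CPM), a raft protein of myelin, and Trf (1492 against 653 CPM), the iron carrier transferrin. Of 10 genes linked to reactive oligodendrocytes, 10 were tested in Tgfbr2-cKO at 21 dpi, and 3 were higher and 2 lower (9.62% of all genes). At 7 dpi 2 of 9 were higher and 1 lower (8.66%), and in Ctrl at 21 against 7 dpi 3 of 8 were higher and 0 lower (10.5%). Apod, a lipocalin, stood at 285, 264 and 1039 CPM at 7 dpi and 616, 170 and 2982 CPM at 21 dpi, and reached 4813 CPM in sub-cluster 6 against 871 CPM in sub-cluster 3 of the same library. Cdkn1a, a cell-cycle inhibitor, stood at 104 CPM in sub-cluster 6 and at 7.69 CPM in sub-cluster 3. C4b, a complement component, stood at 139 CPM in ADWA11 at 7 dpi against 523 CPM in Ctrl (log2 ratio -1.91, -2.49 to -1.36). Of 4 reactive genes tested in that comparison, 1 was lower and 0 higher (7.72% of all genes). Of 14 other myelin genes tested in it, 1 was higher and 0 lower. Of 11 lineage transcription factors tested in Tgfbr2-cKO at 21 dpi, 2 were lower and 0 higher (9.62% of all genes). These were Olig1 and Olig2, with log2 ratios of -1.11 (-1.70 to -0.47) and -1.45 (-2.25 to -0.59). At 7 dpi 1 of 10 tested was lower, Nkx2-2, and 0 higher (8.66%). Of 12 myelin lipid synthesis genes tested, 1 was higher in Tgfbr2-cKO at 7 dpi (Fdft1 by 2.79, 0.28 to 8.10, with 1 UMI in Ctrl) and of 15 tested 1 was lower at 21 dpi (Sc5d by 1.11, -1.91 to -0.24).

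In committed precursors the structural genes differed between libraries. Mbp stood at 2077, 954 and 2228 CPM at 7 dpi in Ctrl, ADWA11 and Tgfbr2-cKO, and at 1673, 942 and 2705 CPM at 21 dpi. Mobp stood at 285, 123 and 635 CPM, then 11.3, 0 and 1131 CPM. Mog stood at 106, 31.9 and 173 CPM, then 45.1, 0 and 395 CPM. Mag stood at 228, 102 and 317 CPM, then 140, 81.4 and 457 CPM. At 7 dpi the order of all 4 structural genes was ADWA11, Ctrl, Tgfbr2-cKO, and at 21 dpi the level of each in Ctrl stood below that in Tgfbr2-cKO. The 8 ADWA11 nuclei at 21 dpi allow up to 34.9 CPM at a count of 0, so the place of that library in the order of Mobp is not determined.

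In ADWA11 against Ctrl at 7 dpi, 6 of 9 members were called and all 6 were lower (8.78% of all genes were called in either direction). Mog fell by 1.73 on the log2 scale (-2.14 to -1.30), Mobp by 1.21 (-1.45 to -0.98), Mag by 1.16 (-1.42 to -0.89), Myrf by 1.14 (-1.47 to -0.79), Mbp by 1.12 (-1.21 to -1.04) and Opalin by 1.07 (-1.69 to -0.42). Mobp was the exception to the direction when female nuclei alone were taken (log2 ratio 2.77), and 0 of the 12 Ctrl nuclei at 7 dpi in sub-cluster 10, which held most Mobp, were called female. The log2 ratio of Gpr17 was 0.99 (0.59 to 1.42), at the edge of 2-fold. The median over the members was -1.12, where that over all genes was 0.11. Of 14 other myelin genes tested, 3 were lower and 0 higher, with Nfasc, an axon-glia adhesion molecule, at 2173 against 4593 CPM. Of 14 lipid synthesis genes tested, 2 were higher, among them Hmgcs1 of the sterol pathway (24.6 against 9.12 CPM).

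In Tgfbr2-cKO against Ctrl, 2 of 9 members were called at 7 dpi and both were higher (7.34% of all genes), Mobp by 1.15 (0.93 to 1.38) and Gpr17 by 1.11 (0.65 to 1.58). With each nucleus weighted equally the ratio of Mobp was -0.26. At 21 dpi 3 of 9 were called and higher (13.2% of all genes), Mobp by 6.65 (5.41 to 8.28), Mog by 3.13 (2.46 to 3.88) and Mag by 1.71 (1.29 to 2.14). Sub-cluster 10, with mature markers raised, made up 20.6% of committed precursors in Tgfbr2-cKO and 0% in Ctrl at 21 dpi. Of 11 other myelin genes tested there, 3 were higher and 1 lower, with Tspan2, a tetraspanin of early myelin, at 504 against 108 CPM. In Ctrl at 21 against 7 dpi, 3 of 9 were called (10.6% of all genes). Gpr17 was higher by 1.45 (0.94 to 1.97), and Mobp fell by 4.66 (-6.30 to -3.42) and Mog by 1.22 (-2.01 to -0.50). Without the percentile filter on nuclei the ratio of Mog was 0.01.

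Most Mobp of this class sat in few nuclei. Sub-cluster 10 held 56 nuclei in which 7 of 10 committed precursor markers and 6 of 11 mature markers were raised. It made up 12.1%, 4.03% and 15.2% of committed precursors at 7 dpi in Ctrl, ADWA11 and Tgfbr2-cKO, and 0%, 0% and 20.6% at 21 dpi. Its 12, 15, 22 and 7 nuclei carried 3166, 1944, 2612 and 3585 CPM of Mobp. In sub-cluster 0, which held all other committed precursors, Mobp was between 0 and 13.8 CPM in every library. The count of 0 among 47 Ctrl nuclei at 21 dpi allows a share of sub-cluster 10 of up to 6.38%, and the 8 ADWA11 nuclei allow up to 37.5%. In the 4 libraries that held it, the share had the same order as the level of Mobp in the whole class.

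**Figure D3:**
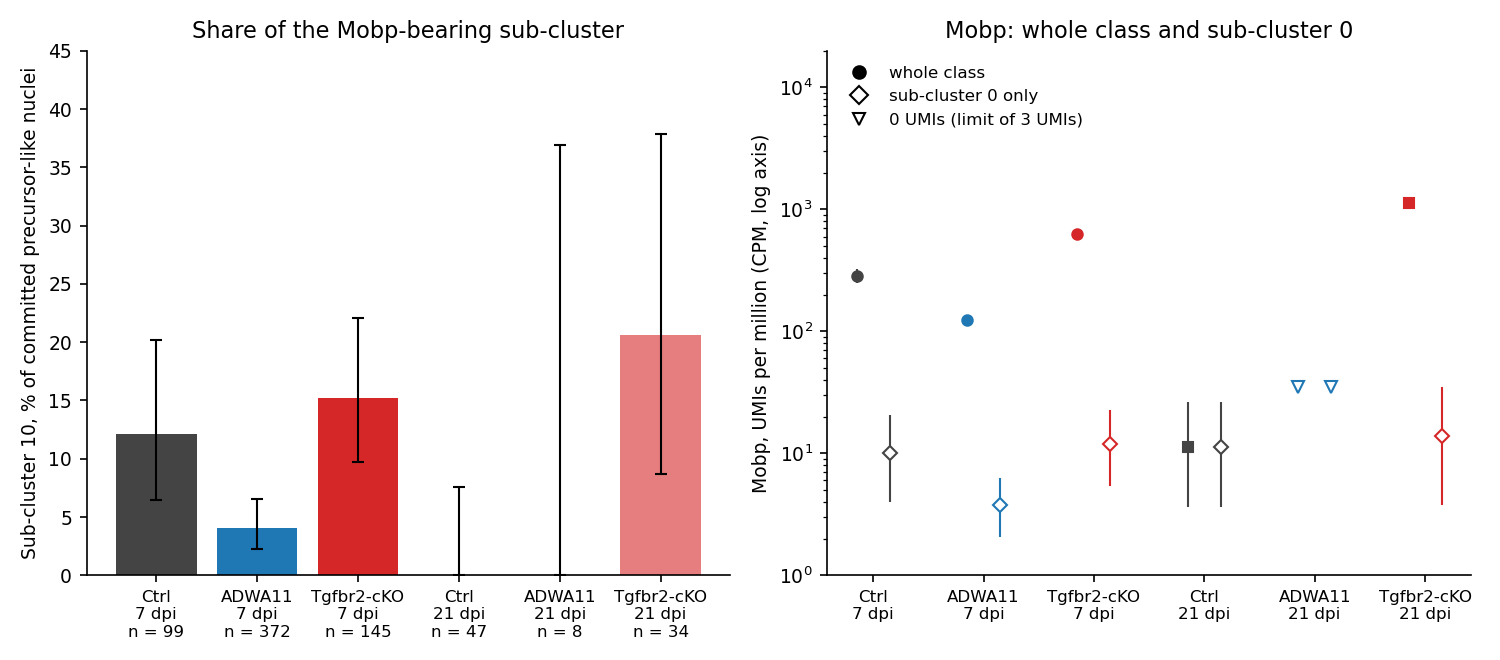
Left, share of committed precursor-like nuclei in sub-cluster 10 (per cent, exact binomial 95% intervals, n the nuclei of the class). Right, Mobp (CPM, log axis, exact Poisson 95% intervals) in the whole class (filled) and in sub-cluster 0 alone (open), where it stays at or below 13.8 CPM in each library.

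Within sub-cluster 0 alone, Mobp differed by 0.18 between Ctrl at 21 and 7 dpi in place of -4.66. Mbp in sub-cluster 0 stood at 1609, 701 and 1084 CPM at 7 dpi in Ctrl, ADWA11 and Tgfbr2-cKO and at 1673, 942 and 1137 CPM at 21 dpi. The lower level of Mbp in ADWA11 at 7 dpi was thus also present without sub-cluster 10. In Tgfbr2-cKO, by contrast, Mbp of sub-cluster 0 was below Ctrl at both days while Mbp of the whole class was above it. Values within sub-cluster 0 are given here for Mobp and Mbp only. The ratios of the other members in committed precursors, Mog and Mag among them, thus compare classes of different make-up.

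In precursors Bcas1 carried most member UMIs. Mbp stood at 46.9 to 59.5 CPM in the 4 Ctrl and ADWA11 libraries and at 67.4 and 169 CPM in Tgfbr2-cKO, while Mobp rested on few UMIs. Gpr17 stood at 18.1, 42.5 and 57.9 CPM at 7 dpi in Ctrl, ADWA11 and Tgfbr2-cKO and at 76.2, 43.3 and 46.9 CPM at 21 dpi. The Ctrl library at 7 dpi was the lowest, as it was in committed precursors (70.4 CPM against 140 to 244 CPM in the other 5). Myrf stood at 10.7, 3.19 and 16.8 CPM, then 23.6, 21.6 and 31.7 CPM. ADWA11 at 7 dpi was the lowest for this transcription factor.

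In ADWA11 against Ctrl at 7 dpi, 2 of 5 members tested were called (8.82% of all genes), Gpr17 higher by 1.23 (0.70 to 1.80) and Myrf lower by 1.74 (-2.81 to -0.70). The class was made up differently in these libraries, since sub-cluster 7, with Kif11 and Top2a of dividing cells among its leading genes, was 16.9% of it in Ctrl and 34.9% in ADWA11. Within sub-cluster 2 alone the log2 ratio was 1.46 for Gpr17 and -1.95 for Myrf. At 21 dpi 0 of 3 were called, with 21 nuclei in ADWA11 (7.47% of all genes). In Ctrl at 21 against 7 dpi, 3 of 5 were called and higher (11.8% of all genes), Gpr17 by 2.07 (1.39 to 2.77), Cnp by 1.32 (0.05 to 2.54) and Myrf by 1.15 (0.02 to 2.23). Of 13 lineage transcription factors tested there, 2 were higher, Olig1 (99.8 against 18.6 CPM) and Olig2 (67.2 against 22.4 CPM), and 1 was lower, Nkx2-2 (63.5 against 149.7 CPM). From 7 to 21 dpi sub-cluster 2 went from 80.5% to 41.8% of Ctrl precursors and sub-cluster 7 from 16.9% to 29.9%. Sub-cluster 8, with raised neuron markers, went from 2.63% to 28.4%. These ratios between days thus compare classes of different make-up.

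In Tgfbr2-cKO against Ctrl, 4 of 8 members tested were called at 7 dpi and all were higher (9.57% of all genes), Mog by 4.80 (2.17 to 10.17), Mobp by 3.61 (1.92 to 5.97), Mag by 2.26 (0.80 to 4.04) and Gpr17 by 1.68 (1.09 to 2.30). At 21 dpi 2 of 7 were called and higher (9.46% of all genes), Mbp by 1.78 (1.18 to 2.44) and Mobp by at least 2.94, since Ctrl had no Mobp UMI in 67 nuclei. The Mobp levels behind these ratios were 1.60, 1.06 and 19.5 CPM at 7 dpi and 0, 5.41 and 41.8 CPM at 21 dpi. Mobp was also higher in nuclei of the Tgfbr2-cKO libraries that are outside the lineage, at 6.42 and 15.3 CPM in fibroblast-like nuclei against 0.231 to 1.69 CPM in the other 4 libraries. In the same Tgfbr2-cKO libraries Mobp stood at 33.1 and 32.8 CPM in astrocyte-like nuclei. It stood at 30.6 (6 UMIs) and 91.4 CPM in endothelial-like and at 14.8 and 11.3 CPM in neuron-like nuclei. At 7 dpi Mog and Mag stood at 14.8 and 12.8 CPM in Tgfbr2-cKO precursors. They stood at 15.8 and 15.1 CPM in astrocyte-like nuclei of that library. The part of that background in the precursor values was not tested. In addition, 6 doublet-called nuclei among the 256 held 10.7% of member UMIs at 7 dpi, and without them Mog was higher by 2.99, Mobp by 1.82 and Mag by 1.08. Sub-cluster 8, in which 6 of 7 neuron markers were raised, made up 45.7% of Tgfbr2-cKO precursors at 7 dpi and 71.1% at 21 dpi, against 2.63% and 28.4% in Ctrl.

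Among the reactive genes, Serpina3n and C4b were highest in precursors of Ctrl at 7 dpi. Of 8 reactive genes tested in ADWA11 against Ctrl at 7 dpi, 2 were higher and 3 lower (8.82% of all genes), and in Tgfbr2-cKO 1 of 8 was higher and 2 lower (9.57%), with Anln at 114 against 51.1 CPM in ADWA11 and Apod at 30.3 against 7.99 CPM in Tgfbr2-cKO going the other way. Serpina3n, a serine protease inhibitor induced in glia by injury, stood at 113 CPM there, against 7.65 CPM (ADWA11) and 24.9 CPM (Tgfbr2-cKO) on the same day and 8.87 to 27.2 CPM at 21 dpi. C4b stood at 295 CPM against 60.1 to 157 CPM in the other 5 libraries. In committed precursors of ADWA11 against Ctrl at 7 dpi, 2 of 6 reactive genes tested were lower and 2 higher (8.78% of all genes). C4b was lower by 2.98 (-3.29 to -2.68) and Serpina3n by 3.46 (-4.26 to -2.70), and B2m, the light chain of MHC class I, was higher by 1.10 (0.16 to 2.20).

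Myeloid nuclei carried Mbp with little Mobp or Mog. Mbp stood at 94.1, 61.0 and 83.0 CPM at 7 dpi in Ctrl, ADWA11 and Tgfbr2-cKO and at 86.9, 51.1 and 124 CPM at 21 dpi. Mobp stood at 1.49, 1.07 and 7.2 CPM, then 0.931, 0.156 and 14 CPM. Set against the mature nuclei of the same library, myeloid Mbp was 1.37% to 3.05% of the mature level in the 4 Ctrl and ADWA11 libraries, myeloid Mobp 0.0147% to 0.0935% and myeloid Mog 0.0205% to 0.0620%. Mbp thus stood at a far higher percentage of its mature level than Mobp or Mog. In the 2 Tgfbr2-cKO libraries Mbp was at 2.38% to 3.32% and Mobp at 0.440% to 0.791%.

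The same contrast was present in T cell-like nuclei, where Mbp was at 4.94% to 6.58% and Mobp at 0.0653% to 0.240% of the mature level in the 4 Ctrl and ADWA11 libraries (the last an upper limit from a count of 0). T cell-like nuclei held 192, 225 and 96.4 CPM of Mbp at 7 dpi and 192, 194 and 320 CPM at 21 dpi. These values were above those of myeloid nuclei in each library. In Tgfbr2-cKO at 7 dpi the value rested on 12 UMIs in 49 nuclei, and its interval (49.8 to 168 CPM) included the myeloid level. Mobp in T cell-like nuclei was between 0 and 1.5 CPM in the Ctrl and ADWA11 libraries. Among myeloid, T cell-like, endothelial-like and fibroblast-like nuclei, Cnp was also highest in T cell-like ones, at 21.4 to 46.3 CPM against 3.98 to 12.7 CPM in myeloid nuclei. In endothelial-like nuclei Mbp stood at 0.457% to 0.998% and Mobp at 0.0453% to 0.562% of the mature level in the same 4 libraries. In the Tgfbr2-cKO libraries the endothelial percentages were 2.19% and 5.99% for Mbp and 1.87% and 5.17% for Mobp, where all Mobp UMIs at 7 dpi were in 1 of 37 nuclei. In T cell-like nuclei of Tgfbr2-cKO they were 2.76% and 8.54% for Mbp and 0.491% and 2.69% for Mobp. Fibroblast-like nuclei held 8.09 to 14.4 CPM of Mbp in the 4 Ctrl and ADWA11 libraries and 23.4 and 65.4 CPM in Tgfbr2-cKO.

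**Figure D4:**
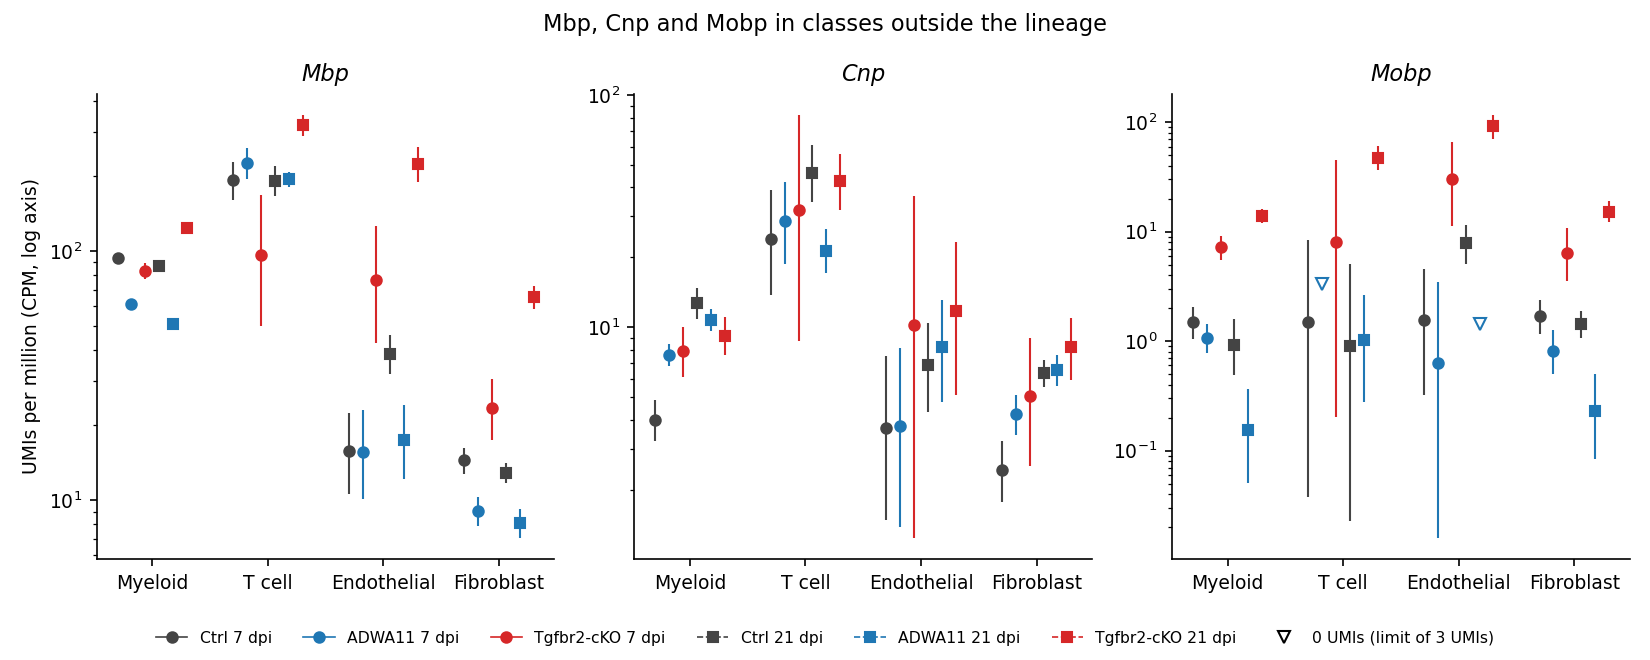
Mbp, Cnp and Mobp (CPM, log axis, exact Poisson 95% intervals) in myeloid-like, T cell-like, endothelial-like and fibroblast-like nuclei of the 6 libraries. In Ctrl and ADWA11, Mbp lies at 51.1 to 225 CPM in the immune classes and at 8.09 to 38.7 CPM in the stromal ones, and Mobp is highest in the Tgfbr2-cKO libraries in each class.

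After each nucleus was thinned to 2000 UMIs, a mean of 18.9% of myeloid nuclei over the 6 libraries held a UMI of any member. The share was 10.9% in endothelial-like nuclei (difference 8.02 ± 4.37 percentage points, SD, n = 6, higher in 6 of 6 libraries; exact two-sided sign-flip permutation test, p = 0.03125, adjusted p = 0.03125) and 6.84% in fibroblast-like nuclei (difference 12, higher in 6 of 6, exact permutation p = 0.03125, adjusted p = 0.03125). T cell-like nuclei had more, 36.1% (difference -17.2, higher in 0 of 6, exact permutation p = 0.03125, adjusted p = 0.03125). The value 0.03125 is the smallest that 6 pairs allow. The median depth of the nuclei before thinning was 3353 to 6718 UMIs in myeloid and 1667 to 2947 UMIs in T cell-like nuclei. Thinning left out 3.75% to 18.5% of myeloid and 26.3% to 53.1% of T cell-like nuclei as too shallow, leaving 23 T cell-like nuclei in Tgfbr2-cKO at 7 dpi, and without it the myeloid share was 31.1% to 53.1% and the T cell-like share 30.6% to 60.5%. Thinned to 1000 UMIs, the difference from endothelial-like nuclei came to 3.39 percentage points and no longer passed (exact permutation p = 0.09375), and that from fibroblast-like nuclei to 6.66. Without thinning the differences from endothelial-like and fibroblast-like nuclei were 18.4 and 20.7, and that from T cell-like nuclei came to -7.70 and no longer passed (exact permutation p = 0.125). With at least 2 UMIs required, none of the 3 differences passed, and myeloid against endothelial-like came to 0.0095 percentage points. Mbp accounted for most of these shares, at 14.1% of myeloid, 6.21% of endothelial-like, 29.1% of T cell-like and 3.56% of fibroblast-like nuclei. Taken gene by gene over 27 comparisons, 5 reached the smallest exact permutation p of 0.03125 in 6 of 6 libraries (Mbp and Mag against endothelial-like and fibroblast-like, Cnp against fibroblast-like), with an adjusted p of 0.169, and with so many comparisons that smallest p cannot pass adjustment unless most of them reach it. Within myeloid nuclei, microglia-like nuclei had a share of 18.3% and border macrophage-like nuclei 15.9% (difference 2.41, higher in 4 of 6 libraries, exact permutation p = 0.156). Both microglia-like clusters had 5 microglia markers raised, but their leading genes included others, with Nrg3, Dpp10 and Syt1 of neurons in cluster 1 and Adamts16, Bnc2 and Col8a1 in cluster 4, where 11.5% of nuclei were called as doublets.

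The myeloid class was a different mixture in each library, with 1868 of 4108, 183 of 5793 and 1695 of 2253 nuclei microglia-like at 7 dpi in the order Ctrl, ADWA11, Tgfbr2-cKO, and 1397 of 3006, 122 of 5624 and 1453 of 2167 at 21 dpi. Mobp and Mog were higher in myeloid nuclei of Tgfbr2-cKO than of Ctrl at both days. At 7 dpi 2 of 6 members tested were called and higher (16.0% of all genes), Mog by 3.0 (1.97 to 4.14) and Mobp by 2.27 (1.67 to 2.90). At 21 dpi 5 of 9 were called and higher (11.4% of all genes), Mobp by 3.91 (3.10 to 4.85), Mog by 3.68 (2.49 to 5.18), Myrf by 1.74 (0.35 to 3.36), Bcas1 by 1.31 (0.69 to 1.96) and Mag by 1.07 (0.73 to 1.43). In microglia-like nuclei alone the log2 ratio of Mobp was 2.42 at 7 dpi and 4.38 at 21 dpi, and that of Mog 2.35 and 3.69, and that of Myrf at 21 dpi was 3.42. At 7 dpi these nuclei lay mostly in different clusters, 1511 of the Ctrl nuclei in myeloid cluster 4 and 1667 of the Tgfbr2-cKO nuclei in myeloid cluster 1. Within cluster 1 Mobp stood at 6.26 CPM in Tgfbr2-cKO and at 0.822 CPM (2 UMIs) in Ctrl. Of 15 other myelin genes tested, 9 were higher at 7 dpi and 7 at 21 dpi, and none was lower. Mobp and the neuron markers were higher in the non-myeloid classes of the same libraries too, and the part of that background in these ratios was not tested. Summed over the members, myeloid nuclei held 114, 87.2 and 124 CPM at 7 dpi and 113, 74.5 and 178 CPM at 21 dpi. Doublet-called nuclei held 3.15% to 9.29% of those UMIs.

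In ADWA11 against Ctrl, 1 of 8 members was called at 7 dpi (12% of all genes), Gpr17 higher by 2.41 (1.47 to 3.52) from 0.402 to 2.14 CPM. Gpr17 was higher outside the myeloid class too. Before thinning it was in 1.73% against 0.338% of fibroblast-like, 3.32% against 0.735% of endothelial-like and 1.23% against 0.427% of T cell-like nuclei. The part of free RNA in the myeloid ratio was not tested. Over the members the median log2 ratio at 7 dpi was 0.18 and that of their sum -0.38, against 2.67 and 0.22 in microglia-like nuclei alone, of which ADWA11 had 183. At 21 dpi 3 of 6 were called (15.0% of all genes), with Myrf higher by 2.05 (0.84 to 3.55) and Bcas1 and Gpr17 lower by 1.68 and 2.97, though Bcas1 was higher by 1.17 in microglia-like nuclei alone. All 3 levels were under 2.3 CPM in both libraries. Bcas1 was also lower in ADWA11 than in Ctrl in fibroblast-like (0.616 against 3.54 CPM) and endothelial-like nuclei (0.482 against 9.69 CPM). In T cell-like nuclei it stood at 0 against 12.7 CPM, and in astrocyte-like nuclei at 19.9 against 17.9 CPM. Gpr17 stood at 0.0385 against 0.662 CPM in fibroblast-like and 1.45 against 4.06 CPM in endothelial-like nuclei. The part of free RNA in these myeloid ratios was not tested. The log2 ratio of Mbp itself was -0.63 (-0.71 to -0.54) at 7 dpi and -0.77 (-0.87 to -0.66) at 21 dpi, under the 2-fold threshold. In Ctrl at 21 against 7 dpi, 3 of 6 were called (13.4% of all genes), Cnp higher by 1.67 (1.31 to 2.04), Gpr17 higher by 1.60 (0.39 to 2.89) and Bcas1 lower by 1.43 (-2.03 to -0.88). Of the other myelin genes, 7 of 12 tested were lower and 0 higher in ADWA11 at 21 dpi, with Nfasc at 1.24 against 6.37 CPM and Gjc3, a gap junction protein, at 0.809 against 2.22 CPM. In Ctrl 7 of 13 were higher at 21 than at 7 dpi and 0 lower, with Trf at 148 against 63.7 CPM, and in ADWA11 at 7 dpi 2 of 16 were higher.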

How the data were processed

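Nuclei from dissected lesions were sorted by DAPI and sequenced on the 10x 3′ v3.1 chemistry (a male and a female mouse combined per library, 6 libraries, 1 per group). The authors deposited filtered matrices of UMI counts per gene and nucleus. The file headers name Cell Ranger 7.2.0 and the submitters' processing notes Cell Ranger 7.1.0 with mm10. The deposited counts were used as raw whole numbers. Within each library the lowest and highest 2.5 percentiles of UMIs and genes and the highest 2.5 of mitochondrial share were left out. Nuclei were clustered with Seurat 5.3.0 (SCTransform 0.4.2, 3000 variable genes, 30 components, resolution 0.5, and 0.25 for myeloid nuclei) after the members, the other oligodendrocyte gene lists and the markers of sex were taken out of the variable genes. A cluster was named where at least 3 markers of a class were raised 2-fold, in at least 5% of nuclei. Doublets were scored against simulated pairs and called at a preset rate that grew with the barcodes of a library, and doublet-called nuclei were kept except in sub-clusters where over 50% were called.

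Levels (CPM) are UMIs scaled to 1000000 non-mitochondrial UMIs of the class in a library. Mbp and Gpr17 lie on chromosome 18, and their sequences are not shown. Intervals are exact Poisson for levels, conditional binomial for ratios and Clopper-Pearson for shares, at 95%, and cover counting error only. A count of 0 was taken to allow 3 counts. Shares were compared over libraries by exact sign-flip permutation. Benjamini-Hochberg adjustment was made over the 3 comparisons of myeloid nuclei with other classes, and separately over those made gene by gene. The planned adjustment also took in the comparison within myeloid nuclei, which was left out of it here. The ratio rule was tested on simulated Poisson counts with known changes, and the permutation test on simulated normal differences. The simulated counts held counting error only, so they do not show how the rule behaves with variation between mice or dissections. Named genes are the 9 members, from each fixed list at most the 3 genes with the largest ratio past 2-fold per comparison (at least 50 UMIs), and the 5 genes most like Mbp and Gpr17 in pattern (at least 200 UMIs). The members and lists were chosen with earlier results of these data known. The planned comparison of microglia-like with lesion macrophage-like nuclei was not run, because no sub-cluster met the rule for that name, and border macrophage-like nuclei took its place after the data were seen. TMM factors came from edgeR 4.0.16. The values of 1 gene of the other myelin genes are not reported here.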

Additional observations from a re-analysis of the deposited data

Results flagged for a closer look

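Gpr17 in precursor-like nuclei was higher in Tgfbr2-cKO than in Ctrl at 7 dpi by 1.68 on the log2 scale and had a ratio of -0.70 at 21 dpi. The opposite signs drew attention, and the difference between the days was not tested. The Ctrl libraries stood at 18.1 CPM at 7 dpi and 76.2 CPM at 21 dpi, and the Tgfbr2-cKO libraries at 57.9 and 46.9 CPM. Precursors differed in make-up, with sub-cluster 8 at 2.63% and 28.4% of them in Ctrl and 45.7% and 71.1% in Tgfbr2-cKO.

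In myeloid-like nuclei Gpr17 was higher in ADWA11 at 7 dpi by 2.41 and had a ratio of -2.97 at 21 dpi, and Bcas1 had ratios of 0.30 and -1.68. These differences between the days were not tested. The levels of Gpr17 lay between 0.156 and 2.14 CPM in these 4 libraries. In fibroblast-like nuclei Gpr17 had the same directions. It stood at 1.97 CPM in ADWA11 against 0.422 CPM in Ctrl at 7 dpi, and at 0.0385 against 0.662 CPM at 21 dpi. Bcas1 in fibroblast-like nuclei was lower in ADWA11 at both days, at 6.39 against 7.64 CPM and 0.616 against 3.54 CPM. The part of free RNA in the myeloid values was not tested.

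Member RNA was also counted in nuclei that the comparisons left out. Sub-clusters of the lineage that were mostly doublet-called held 1698 to 3751 CPM of the 9 members together in 5 libraries, an unnamed lineage sub-cluster with a median of 1363 UMIs held 2535 to 4422 CPM in 5 libraries, and the unnamed clusters of all nuclei held 158 to 614 CPM in 6 libraries. No group or control was set against these values.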

How the results depend on the processing

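No paired analysis of conditions was possible because each group is 1 library and the groups share only replicate number 1. The paired share tests set classes of the same library against each other. Conditions were compared within a day. In mature nuclei the median log2 ratio over the members moved by less than its interval under each alternative tried. In precursors of Tgfbr2-cKO at 7 dpi the median was 1.08 without doublet-called nuclei, 0.59 in male nuclei and 0.87 in sub-cluster 2, in place of 1.68. In ADWA11 precursors it was 0.19 at 7 dpi and 0.055 at 21 dpi with the lists kept among the variable genes, and at 7 dpi -0.073 in male nuclei and -0.22 in sub-cluster 2. In committed precursors of ADWA11 at 7 dpi it was -1.36 with nuclei weighted equally, -0.89 in female nuclei and -0.78 without the percentile filter. The called members that reversed were Mobp and Mog in committed precursors and Bcas1 in myeloid nuclei. Mobp came to -0.26 in Tgfbr2-cKO at 7 dpi with nuclei weighted equally. It came to 2.77 in ADWA11 at 7 dpi in female nuclei, and to 0.18 in Ctrl at 21 against 7 dpi in sub-cluster 0. Mog came to 0.014 in Ctrl at 21 against 7 dpi without the percentile filter. Bcas1 came to 1.17 in ADWA11 at 21 dpi in microglia-like nuclei. Mbp was not called in committed precursors of Tgfbr2-cKO. Its level there was above Ctrl in the whole class and below Ctrl in sub-cluster 0 at both days. For the summed members in myeloid nuclei, TMM factors gave 0.010 for Tgfbr2-cKO at 7 dpi, -0.49 for ADWA11 at 21 dpi and -0.11 for Ctrl at 21 against 7 dpi. In microglia-like nuclei alone the Tgfbr2-cKO ratio was 0.24 at 7 dpi and 0.76 at 21 dpi, and that of ADWA11 0.22 and -0.82, with a median over the members of 2.67 in ADWA11 at 7 dpi. By mouse, male nuclei gave 0.55 for Tgfbr2-cKO at 21 dpi and -0.17 for ADWA11 at 7 dpi, and female nuclei gave -0.55 and -0.44 for ADWA11 at 7 and 21 dpi. The cause of these changes was not tested.

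Of the share tests, myeloid against endothelial-like no longer passed at 1000 UMIs (3.39 percentage points) or with at least 2 UMIs (0.0095), T cell-like without thinning (-7.70), for Mbp alone (-15.1) or with at least 2 UMIs (-8.52), and fibroblast-like with at least 2 UMIs (1.58). Leaving out 1 library gave 6.69 to 9.26, -20.4 to -15.3 and 11.5 to 12.5, where 5 libraries allow no exact permutation p below 0.0625. Without the 20-UMI minimum, 3.69% to 13.6% of all genes were called in place of 7.34% to 16.0%. Sub-cluster and microglia-like settings were chosen after seeing the data. The number of nuclei limits ADWA11 at 21 dpi, where a count of 0 allows 16.2 CPM in 21 precursors and 34.9 CPM in 8 committed precursors.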
